A study of Homo sapiens with 9 samples.

Results

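The regions described here are the p65 and TEAD peaks in the 4 clusters of human HOX genes in 786-O, an established clear cell renal carcinoma line. They were chosen by the position of their summits in the authors' peak lists, in hg19 windows for HOXA (chromosome 7 from 27130000 to 27250000), HOXB (chromosome 17 from 46600000 to 46810000), HOXC (chromosome 12 from 54330000 to 54450000) and HOXD (chromosome 2 from 176950000 to 177060000). The windows held 54 of the 60345 peaks in the 5 lists. Since a peak enters only by being called, the number of peaks and their strengths are a description with no test. The clusters hold 38 HOX genes considered here, 10 each in HOXA and HOXB and 9 each in HOXC and HOXD.

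Chromatin immunoprecipitation sequencing (ChIP-seq) was made on 9 libraries, 1 per condition, 4 of them input chromatin. The NF-κB subunit p65 (RELA) was precipitated from 786-O cells labelled control, siTEAD4, vehicle and XMU-MP-1. TEAD was precipitated from XMU-MP-1 cells. XMU-MP-1 inhibits MST1 and MST2, the kinases of the Hippo pathway, and siTEAD4 names an siRNA against TEAD4, which the treatment label of the same library gives as siTEAD. All conditions share the 786-O line, and the labels give no dose, no time and no TEAD family member for the antibody. The list labelled siTEAD4 carries the name p65_Vert in its peak identifiers, so its condition rests on the label.

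HOX genes encode homeodomain transcription factors that set position along the body axis. Within a cluster their order along the chromosome follows the order in which they act from head to tail, and silent clusters are typically held by Polycomb proteins. In the developing kidney the genes of paralogue group 11, such as HOXA11 and HOXD11, are needed for outgrowth of the ureteric bud. TEAD proteins bind DNA for the coactivators YAP and TAZ, and p65 is the transactivating subunit of the common NF-κB dimer.

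No genome of the peaks' build was used here, so no sequence under a peak is shown. RefSeq promoters (GRCh38.p14, 250 bases before to 50 after a gene start) were matched for 20 of the 38 genes, with 27 promoters. The core of the TEAD site, GGAATG on either strand, was present in 8 of the 27 (29.6%) and in 14.0% of all 35116 promoters. Those 8 belonged to HOXA3, HOXA10, HOXC4, HOXC5, HOXD4, HOXD8, HOXD10 and HOXD13, and HOXC4 and HOXC5 share 1 start. The NF-κB consensus decamer was present in 3 of the 27 (11.1%), those of HOXA2, HOXC4 and HOXC5, and in 11.3% of all promoters. The AP-1 site TGANTCA was in 0 of the 27 and in 7.71% of all promoters. No HOXA promoter held more than 1 of the 3 motifs, so no matches of different motifs overlap in the HOXA stretches.

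The 3 HOXA stretches with such a match follow, because HOXA is the cluster with most of the peaks. Capitals mark the match. Their GRCh38.p14 positions were not converted to the hg19 positions of the peaks, so whether a peak lies on them was not tested. HOXA3 is a promoter at chr7:27122978-27123277 on the minus strand, HOXA10 one at chr7:27179812-27180111 on the minus strand, and HOXA2 one at chr7:27102634-27102933 on the minus strand.
HOXA3 (GGAATG): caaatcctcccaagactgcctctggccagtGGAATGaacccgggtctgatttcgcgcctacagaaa
HOXA10 (GGAATG): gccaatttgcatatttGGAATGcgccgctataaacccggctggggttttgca
HOXA2 (NF-κB consensus): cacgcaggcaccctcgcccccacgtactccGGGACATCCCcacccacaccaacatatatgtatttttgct

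Occupancy was concentrated in HOXA. Of the 54 peaks, 42 lay in HOXA, 4 in HOXB, 3 in HOXC and 5 in HOXD. TEAD had 16 peaks in HOXA, 3 in HOXB, 1 in HOXC and 2 in HOXD. In control cells p65 had 11 peaks in HOXA and 1 in each other cluster. In vehicle cells it had 11 in HOXA, 1 in HOXC, 2 in HOXD and 0 in HOXB. The lists labelled siTEAD4 and XMU-MP-1 had 2 p65 peaks each, all in HOXA. Both were also short genome-wide, with 1813 peaks (siTEAD4-labelled) and 1649 peaks (XMU-MP-1). Control p65 had 15465 peaks and vehicle p65 had 17958. Fewer p65 peaks in HOX thus went with fewer in the whole list, and a loss particular to HOX was not shown by these counts.

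The clusters differ in length, so counts were also read per 100 kb and beside the 250 kb on either side of each window. TEAD density in HOXA was 13.3 peaks per 100 kb, against 1.2 in its flanks. The p65 density in HOXA was 9.17 peaks per 100 kb in control and in vehicle cells, against 1 and 1.2 in the flanks. In HOXB, TEAD density was 1.43 inside and 1.40 outside, while p65 density was lower inside than outside in control (0.476 and 1.6) and in vehicle cells (0 and 2.20). HOXC had TEAD densities of 0.833 inside and 1.40 outside, with a control p65 density of 0.833 inside and 0.4 outside and a vehicle density of 0.833 and 1.0. HOXD lay in a region poor in peaks, with a TEAD density of 1.82 inside and 0.200 outside, and no control or vehicle p65 peak in its flanks. HOXA thus stood out from its neighbourhood in both factors, whereas HOXB and HOXC did not for TEAD. HOXD was also denser inside than outside in both factors, but on 2 TEAD, 1 control p65 and 2 vehicle p65 peaks.

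**Figure D1:**
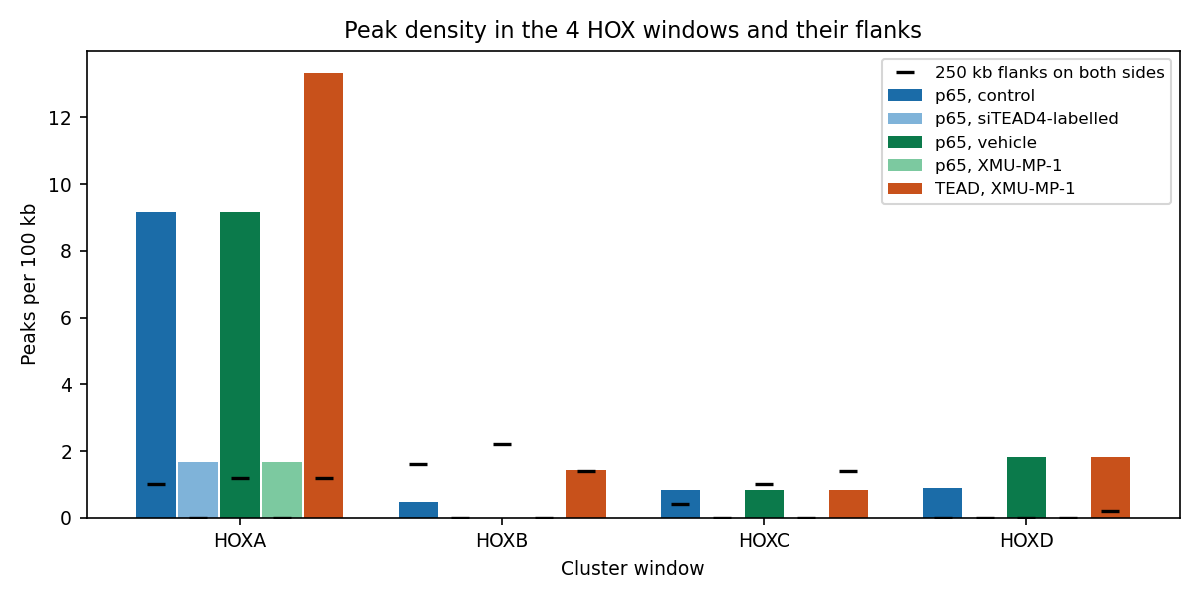
Peaks per 100 kb (y axis) in the 4 windows (x axis), 1 bar per list, with a black dash for the density in the 250 kb on both sides. The TEAD bar of HOXA reaches 13.3 and its control and vehicle p65 bars reach 9.17. No bar of HOXB, HOXC or HOXD is above 1.82.

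The whole genome gives a second scale. When each list was divided into consecutive 120 kb bins, the length of the HOXA window, a bin held 0.920 TEAD peaks on average. At least 16 were found in 12 of 25512 bins (0.047%), 1 of which holds the HOXA peaks themselves. For p65, 11 or more peaks were found in 22 of 25483 bins (0.0863%) in the control list and in 25 of 25727 (0.0972%) in the vehicle list. Bins of the size of the other windows held as many TEAD peaks far more often: 23.5% of bins for HOXB, 39.7% for HOXC and 20.01% for HOXD.

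**Figure D2:**
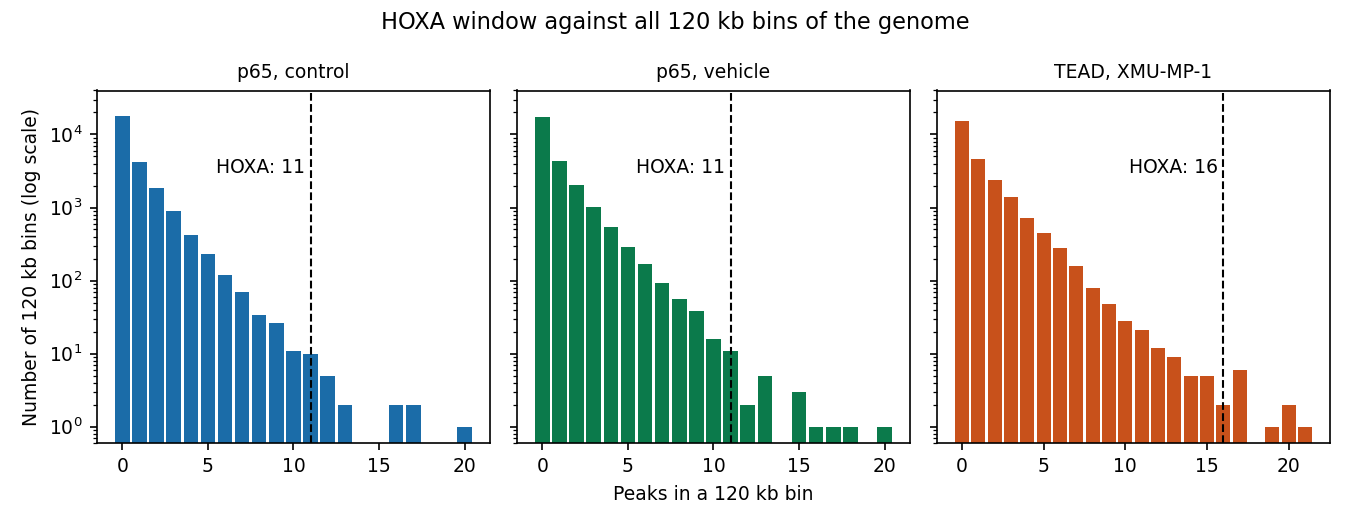
Number of 120 kb bins (y axis, log scale) by the peaks they hold (x axis) for control p65, vehicle p65 and TEAD, with a dashed line at the HOXA count. HOXA has 11, 11 and 16 peaks, and the fullest bins have 20, 20 and 21.

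HOXA was dense in peaks, and most of its TEAD peaks were of low fold. The fold, which is the authors' ratio of the pileup at the summit to a local background, had a median of 4.93 over the 16 HOXA TEAD peaks, against 6.27 in the whole TEAD list. Only 5 of the 16 were above that list median, and 1 was in the strongest decile. The 11 control p65 peaks had a median fold of 5.55 (list median 5.98), and the 11 vehicle peaks 5.29 (list median 5.87). By pileup, the height of the stacked fragments at the summit in the scaled units of each list, the median of HOXA p65 peaks was above that of the list: 24.6 and 19.9 in the control and 19.0 and 18.0 in the vehicle list. HOXA TEAD pileups had a median of 16.0, against 18.0 in the whole list. In each of these lists 1 HOXA peak was in the strongest decile. The local background of HOXA peaks was near the median of chromosome 7: 2.96 and 2.9998 in the control, 2.72 and 2.63 in the vehicle and 2.34 and 2.30 in the TEAD list. Chromosome 7 backgrounds were above those of the whole lists (2.405, 2.13 and 1.87), and the part of this in the low folds was not tested.

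Most other bins with at least 16 TEAD peaks had stronger ones. Across these 11 bins the median TEAD fold ran from 4.89 to 30.2, and 1 bin was below HOXA. A vehicle p65 peak lay at 43.8% of HOXA TEAD peaks (7 of 16), and at 0 to 82.4% of the TEAD peaks of the other bins, with 5 bins above HOXA. The fold of 30.2 and the overlaps of 0% came from bins on chromosome 1. Over the 11 bins the medians were 8.42 for fold and 33.3% for overlap. HOXA was therefore among the weakest of these regions in TEAD fold and in the middle in p65 overlap.

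HOXA was divided at the longest interval between p65 peaks of any list, so the lack of p65 there follows from the division. TEAD peaks were also sparser in that interval. The widest spacing of TEAD summits in HOXA was 12.7 kb, against 31.0 kb for control and 31.1 kb for vehicle p65. On the side of HOXA2 and HOXA3, the low-coordinate end in the gene order of GRCh38.p14, a stretch of 31.9 kb (27142438 to 27174349) held 7 control and 8 vehicle p65 peaks and 8 TEAD peaks. The next 30.7 kb held no p65 peak in any of the 4 p65 lists and 3 TEAD peaks. A stretch of 4.86 kb (27205094 to 27209952) then held 4 control and 3 vehicle p65 peaks and 3 TEAD peaks. Neighbouring HOXA summits were 4.58 kb apart at the median for TEAD, 4.22 kb for control and 3.49 kb for vehicle p65, against 34.3, 49.6 and 42.7 kb in the whole lists. Which gene each peak lies in was not analysed here, because no hg19 annotation was used.

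**Figure D3:**
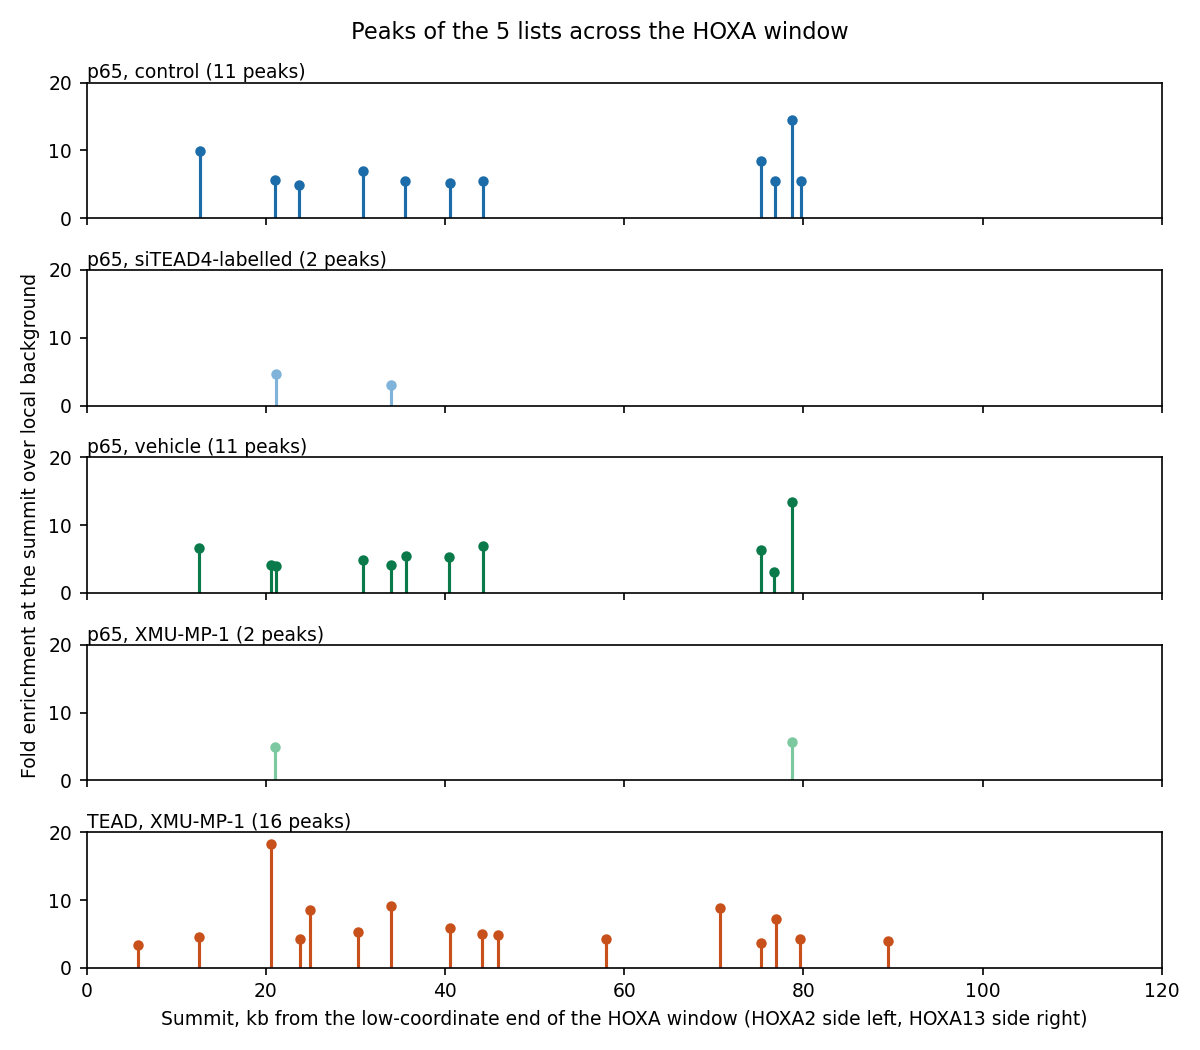
Fold at the summit (y axis) against the distance of the summit from the low-coordinate end of the HOXA window in kb (x axis), 1 panel per list. The strongest TEAD peak (fold 18.3) is 20.5 kb in, and the strongest p65 peaks (14.5 and 13.4) are 78.7 kb in, where no TEAD peak overlaps them.

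Peaks of different lists that overlapped by at least 1 bp were joined into sites, which gave 19 sites in HOXA, 4 in HOXB, 2 in HOXC and 5 in HOXD. In HOXA, 9 sites held both TEAD and p65, 7 TEAD alone and 3 p65 alone. In the other clusters 0 of 11 sites held both. The share of sites with both was not computed over the whole lists. By peaks, 34.5% of all TEAD peaks had a vehicle p65 peak and 47.4% of all control p65 peaks had a TEAD peak. All 8 sites called in 3 or more lists were in HOXA. They are described from the low-coordinate end, with each fold relative to the background of its own list.

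The site from 27142438 to 27142828 had a p65 fold of 9.90 in control and 6.56 in vehicle cells, and a TEAD fold of 4.48. It had no peak in either treated p65 list. The control peak was at the 82.6th percentile of fold in its own list, the vehicle peak at the 60.0th and the TEAD peak at the 17.6th.

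The site from 27150342 to 27151287 was the only HOX site called in all 5 lists, and it had the strongest TEAD peak of the 4 clusters. Its TEAD fold was 18.3 on a pileup of 63.0, at the 94.0th percentile of the TEAD list. The p65 fold was 5.64 in control cells and 4.20 and 4.02 at 2 vehicle peaks. The treated p65 peaks had folds of 4.89 (XMU-MP-1) and 4.70 (siTEAD4-labelled). One of the vehicle summits lay 11 bp from the TEAD summit. All other p65 summits here lay 469 to 599 bp away on the high-coordinate side: 469 bp for XMU-MP-1, 516 bp for control, 548 bp for siTEAD4-labelled and 599 bp for vehicle cells. The p65 peaks of both treated lists thus began at least 588 bp after the start of the TEAD peak and did not cover its summit.

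The site from 27163408 to 27164529 was the longest TEAD peak of the HOX clusters, at 1122 bp, with a TEAD fold of 9.16. The p65 fold was 4.14 in the vehicle list and 3.05 in the list labelled siTEAD4, with summits 8 and 10 bp from the TEAD summit. No control peak was called here, so the siTEAD4-labelled peak has no counterpart in its own control. Its −log10 q was 2.38, and its background of 6.22 was above the 4.40 that is the median of that list.

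At 27170325 to 27170715 the fold was 5.25 in control and 5.29 in vehicle p65 and 5.87 in TEAD, each below the median of its list. The site from 27173951 to 27174349 had p65 folds of 5.52 and 6.89 and a TEAD fold of 4.98, with both p65 summits 104 bp from that of TEAD. Neither site had a peak in a treated p65 list.

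On the HOXA13 side, the site from 27205046 to 27205519 had p65 folds of 8.40 in control and 6.31 in vehicle cells and a TEAD fold of 3.72, with p65 summits within 17 bp of the TEAD summit. The site from 27206639 to 27207034 had p65 folds of 5.55 and 3.05 and a TEAD fold of 7.27, of which only the last was above the median of its list. Both were without a call in the treated p65 lists.

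The strongest p65 site of the HOX clusters, from 27208310 to 27209361, had no TEAD peak. Its fold was 14.5 in control, 13.4 in vehicle and 5.73 in XMU-MP-1 cells, with summits 27 bp apart or less. Within their own lists these folds were at the 93.3rd, 91.9th and 45.6th percentile. No peak was called there in the list labelled siTEAD4. The nearest TEAD summit was 853 to 880 bp away, at a weak peak (fold 4.28, 27209533 to 27209735) that overlapped a separate control p65 peak of fold 5.53.

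The remaining HOXA sites were called in 1 or 2 lists. One more site held both factors, from 27153529 to 27153908, with a control p65 fold of 4.96 and a TEAD fold of 4.19. Control and vehicle p65 were called without TEAD at 27160685 to 27160962 (6.96 and 4.82) and at 27165434 to 27165720 (5.44 and 5.47). TEAD alone was called at 7 sites, with folds from 3.35 to 8.81. The 2 highest of these were 8.81 (27200489 to 27200827), inside the stretch without p65, and 8.53 (27154721 to 27155131).

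HOXB, HOXC and HOXD held single, mostly weak peaks, too few to read the lack of overlap between TEAD and p65 as a trait of these clusters. HOXB, which runs from HOXB1 at low to HOXB13 at high coordinates, had TEAD folds of 5.15 (46715386 to 46715607), 4.96 (46681259 to 46681549) and 3.78 (46621861 to 46622063). Its only p65 peak, in control cells from 46632621 to 46632809, had a fold of 5.02 on a pileup of 11.7 and no vehicle peak. None of the 4 reached the median fold of its list.

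In HOXC, where HOXC13 lies at the low end and HOXC4 to HOXC6 at the high end, p65 was called at 54411697 to 54411932 in control (fold 5.59) and in vehicle cells (6.18), with summits 3 bp apart. This was the only site outside HOXA called in more than 1 list. The only TEAD peak of HOXC, from 54407326 to 54407754 with a fold of 5.34, had its summit 4.33 kb away.

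HOXD runs from HOXD13 at low to HOXD1 at high coordinates. Control p65 had 1 peak, from 176971295 to 176971766 (fold 6.36), and vehicle p65 had 2, at 176971903 to 176972085 (4.52) and at 177016975 to 177017255 (7.06). Although the control peak and the nearer vehicle peak were 136 bp apart, they did not overlap. TEAD was called at 176968723 to 176969295 (6.05) and 176995385 to 176995593 (5.01), with its nearest summit 2.45 kb from a p65 summit.

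**Figure D4:**
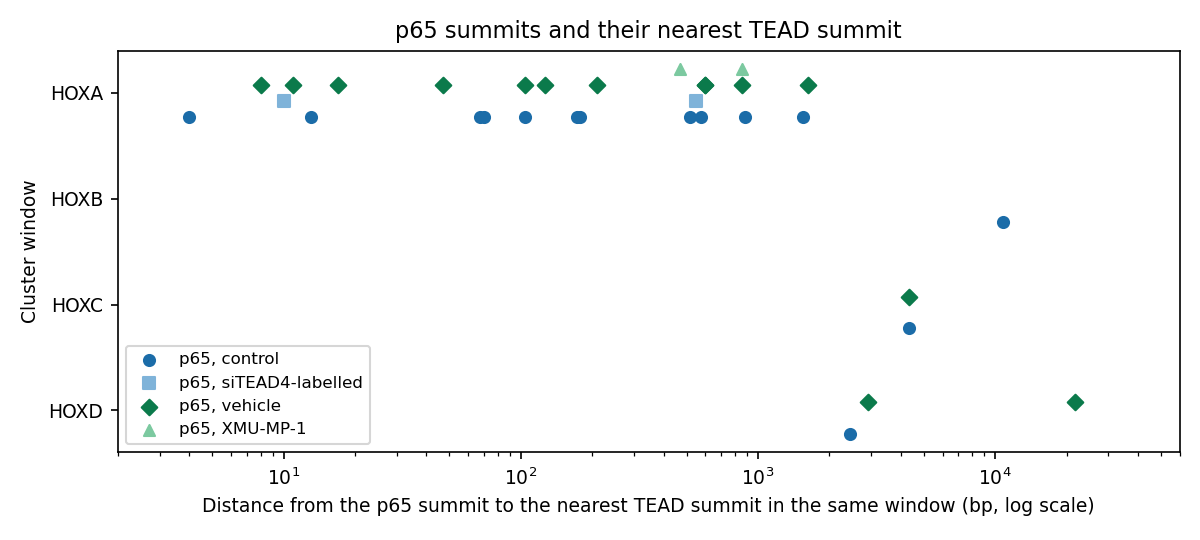
Distance from each p65 summit to the nearest TEAD summit of the same window in bp (x axis, log scale), by cluster (y axis) and p65 list (colour and shape). HOXA summits are 4 to 1628 bp from TEAD, and those of HOXB, HOXC and HOXD 2446 bp or more.

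How far the control and vehicle p65 lists coincide is given first, as a reference for the treated ones. The 2 lists come from different conditions and are not replicates. Of the 14 control p65 peaks in the HOX clusters, 10 had a vehicle peak (71.4%, 95% Wilson interval 45.4 to 88.3), against 79.5% of all control peaks. By cluster this was 9 of 11 in HOXA, 1 of 1 in HOXC and 0 of 1 in both HOXB and HOXD. Peaks of the same decile of fold gave 11.0 of 14. The intervals count peaks only, and with 1 library per condition no difference between lists has a replicate check.

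In the list labelled siTEAD4 1 of the 14 control peaks was kept, with kept meaning an overlap of 1 bp or more (7.14%, 1.27 to 31.5). The share of all control peaks was 11.2%, and shares by decile of fold gave 1.23 of 14. The kept peak was that of the site with 5 calls, of middling fold (5.64). The strongest HOX control peak, of fold 14.5, was not kept. In its decile of fold, the strongest, 57.5% of control peaks were kept, against 2.39% in the weakest. At the 93.3rd percentile it lay in the lower part of that decile, and the share for peaks of its own fold was not computed.

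Of the 14 vehicle peaks, 2 were kept in XMU-MP-1 cells (14.3%, 4.01 to 39.9), against 8.77% of all vehicle peaks and 0.774 of 14 from shares by decile. These were the strongest HOX vehicle peak (13.4) and the one with the second lowest fold in HOXA (4.02). The share over all peaks lay inside the interval of the HOX share in both comparisons.

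The limit behind a missing call is given for each list in its own pileup units. These units differ, with pileup steps of 0.587 in the control, 0.783 in the XMU-MP-1 and 1 in the other lists. The pileup limits below therefore do not compare depth between lists. With a local background at the chromosome 7 median, a pileup of 18 (fold 3.0002) would reach the lowest −log10 p of the siTEAD4-labelled list. For XMU-MP-1 p65 this took a pileup of 15.7 (3.33). The limit was 11.2 (3.04) in the control, 10 (3.03) in the vehicle and 9 (3.03) in the TEAD list. A HOXA site without a call may have had enrichment up to about these folds, so a missing peak is not a measured 0.

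TEAD overlap was measured from both sides. A TEAD peak lay at 8 of the 14 control p65 peaks (57.1%, 32.6 to 78.6) and at 8 of the 14 vehicle peaks (57.1%, 32.6 to 78.6), all of them in HOXA, where they were 8 of 11 in either list. Over all peaks the shares were 47.4% and 45.6%. At equal decile of fold 6.44 and 6.45 of 14 would have a TEAD peak. In the other direction, 7 of the 22 TEAD peaks had a vehicle p65 peak (31.8%, 16.4 to 52.7), against 34.5% of the whole TEAD list. An XMU-MP-1 p65 peak, from cells under the same treatment, lay at 1 of the 22 (4.55%, 0.807 to 21.8), against 5.26%. In all 4 of these comparisons the share over all peaks lay inside the interval of the HOX share. TEAD was precipitated from XMU-MP-1 cells alone, so the overlaps with control and vehicle p65 join different conditions.

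Summits of overlapping control and vehicle p65 peaks in HOX were 30 bp apart at the median over 11 pairs, against 31 bp over all pairs, but 54.5% of these 11 were within 50 bp, against 69.6% of all. For p65 and TEAD the median was 87.0 bp over 8 control pairs (57.0 bp over all) and 75.5 bp over 8 vehicle pairs (60.0 bp over all). Within 50 bp were 2 control pairs (25.0%, against 45.6% of all) and 4 vehicle pairs (50%, against 43.4% of all). By this count the lists differed from all pairs in opposite directions, although both medians were above those of all pairs.

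The borders of the windows cut no group of peaks. The member nearest a border of its window was a TEAD peak 5.68 kb inside HOXA with a fold of 3.35. The nearest peaks outside any window were 21.3 kb above HOXB, with a control p65 fold of 8.55 and a vehicle p65 fold of 3.81. The authors' peak numbers ran without a gap through the members of each list and cluster.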

How the data were processed

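Reads were processed with fastp, Bowtie2 2.4.5 and MACS2 on hg19, per the submitters' processing notes. The sources used here do not give the settings or which input served each list. The authors deposited 1 peak list per immunoprecipitate, with the fold (a ratio of summit to local background), −log10 p-value, −log10 q-value, a score near 10 times the −log10 q and the summit offset. Each fold refers to the background of its own list, so folds of different lists show no change. The lists give no read totals. Pileup and background were solved from the fold (pileup plus 1 over background plus 1) and the Poisson p, within 0.005 for at least 99.9% of peaks of each list, in steps of 0.587 in the control, 0.783 in the XMU-MP-1 and 1 in the other lists. Pileups are thus in scaled units that differ between lists. The 1st percentile of background ran from 1.08 (TEAD) to 2.34 (siTEAD4-labelled).

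Peaks were members by summit. Overlap meant at least 1 bp. Overlaps, bins and pileups used pandas 2.3.3, numpy 2.4.6 and scipy 1.17.1 under Python 3.11.15, and the code was tested on simulated data. Sites named are those in 3 or more lists, the 2 strongest per cluster in the TEAD, control and vehicle lists, and all peaks of the treated lists; other sites were added. Members, windows and lists were chosen with earlier results of these data known. Alternatives were other overlap rules, −log10 q limits and window rules. HOX cofactor genes and motifs under peaks were not analysed here, since the reference tables are of GRCh38.p14.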

Additional observations from a re-analysis of the deposited data

How the results depend on the processing

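Among 56 recomputed values, 36 fell inside the 95% interval of the main share or less than 1.5 times from the main count. The other 20 moved. A −log10 q of at least 10 keeps few members, which accounts for most moves. Members then numbered 5 in the control, 3 in the vehicle, 0 in both treated and 5 in the TEAD list. At a limit of 5 there were 13 in the TEAD and 1 in the siTEAD4-labelled list. TEAD density at the limit of 10 was 4.17 peaks per 100 kb in HOXA and 0 in HOXB, HOXC and HOXD. Of control peaks, 2 of 5 (40.0%) then had a vehicle peak and 1 of 5 (20%) a TEAD peak. At the limit of 5 the latter was 4 of 13 (30.8%). At the limit of 10, TEAD peaks lay at 0 of 3 vehicle peaks (0%). The other 4 shares fell to 0%: control peaks kept in the siTEAD4-labelled list, vehicle peaks kept in the XMU-MP-1 list, and TEAD peaks with a vehicle or an XMU-MP-1 p65 peak. With summits within 200 bp the share of TEAD peaks with an XMU-MP-1 p65 peak was 0%. Shares over all peaks were not computed under these alternatives, so whether HOX peaks differ from them there was not tested. Other window rules moved no count by over 1.5 times. No paired analysis was possible because there was only 1 library for every condition.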
